A study of Homo sapiens with 54 samples.

Results

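Transcript levels of 3 genes, ASB2, FLNA and FLNC, were followed across every treatment group of the series. ASB2 is the substrate-recognition subunit of a ubiquitin ligase, and FLNA and FLNC encode filamin A and filamin C, which ASB2 marks for degradation. They were selected on measured values: each row carrying these names was taken from the count table of 27978 genes because of its ratio to untreated cells of the same time and batch, so ratios to untreated and to whole CKI are given for the members as description, with no test. The choice also covered the mixtures, so p-values of tests between mixtures and of their changes with time are not independent of it. Untreated cells are the base of those ratios, so tests between untreated groups are not independent of the choice either.

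The cells were MDA-MB-231, a long-established human breast cancer line. Compound Kushen Injection (CKI) is a mixture extracted from the roots of Sophora flavescens and Heterosmilax chinensis, and the series used fractionation to remove named compounds from it. The labels give 18 groups of 3 replicates, 54 libraries in all, in 3 sets: 24 h in batch 1, 48 h in batch 1 and 48 h in batch 2. Every set held untreated cells (UT) and cells given CKI at 2 mg/ml, and all mixtures were given at the equivalent of that dose. In batch 1 the mixtures were N_2, which is CKI lacking oxymatrine and oxysophocarpine, N_3, which lacks macrozamin as well, OO, which holds only oxymatrine and oxysophocarpine, and MOO, which holds only these and macrozamin. In batch 2 each mixture was CKI lacking a single compound: macrozamin (N_Mac), N-methylcytisine (N_Nme), oxymatrine (N_Omt) or trifolirhizin (N_Tri). The design text calls the 3 replicates of a group biological, and all of them are of this single line.

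ASB2 belongs to the ankyrin repeat and SOCS box family. Its SOCS box recruits elongin B, elongin C and cullin-5, and the ligase thus assembled tags its targets for the proteasome. Filamins are long dimeric proteins that crosslink actin filaments into networks and anchor membrane receptors to them, and loss of filamins through ASB2 is known from differentiating blood and muscle cells. Only RNA was measured here, so filamin protein, the direct target of ASB2, was not observed, and in RNA of whole cultures fewer expressing cells and less RNA per cell cannot be told apart.

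In GENCODE on GRCh38, ASB2 lies on chromosome 14 from 93934153 to 93976791 on the minus strand, FLNA on chromosome X from 154348524 to 154374638 on the minus strand, and FLNC on chromosome 7 from 128830377 to 128859274 on the plus strand. The authors counted on hg19, and no position from that build was used. The 250 bases before each RefSeq start on GRCh38.p14 were searched on both strands for the CArG box, the site of serum response factor, which controls many actin cytoskeleton genes. A match was present in 1 of the 2 ASB2 windows and in the FLNA window, against 1.16% of 35116 windows over all genes, and FLNC had no match. The stretches that hold these matches are shown with the CArG box in capitals, because they are a feature in which the ligase subunit and a filamin can be compared. The first is chr14:93976792-93976820 and the second chrX:154374709-154374738, both given on the minus strand.
ASB2: acCCATATATGGcctccatgtcaaggatc
FLNA: ggcaattttaCCAATTAAGGctttctcgcc
The box ended 239 bases before the RefSeq start of ASB2 and 85 bases before that of FLNA. GENCODE exons of any gene cover 221 of the 250 bases of that ASB2 window and 93 of those of FLNA, so the windows are in part exonic. The FLNA gene itself ends at 154374638, at the edge of its window, so nearly all of those 93 bases belong to exons outside FLNA. On the minus strand the GENCODE start of ASB2, 93976791, directly follows the stretch shown, so the box lies far nearer to it than to the RefSeq start. The core GCGTG bound by the aryl hydrocarbon receptor was present in 32.2% of all windows and occurred at 2 places in that of FLNA. The nuclear receptor core AGGTCA, present in 12.1% of windows, and the core TGGGAA of the Notch effector RBPJ, present in 20.8%, occurred in none of the members' windows, and GCGTG in none of those of ASB2 or FLNC. These are matches of letters in a short window and no binding was measured.

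Total counts were between 17673537 and 26138924 per library. The labelled line was checked by its markers. VIM, CD44, AXL, CAV1 and MSN, all high in this line, had a summed group mean of 1890 to 4740 CPM (counts per library total, adjusted by the TMM method). The hormone receptor genes ESR1 and PGR, which this line lacks, had group means of at most 0.192 and 0.0579 CPM and no count in 25 and 39 libraries. GATA3 and EPCAM, also listed as absent markers, went against that list. They had counts in every library and reached 45.1 and 26.2 CPM. For 5 fibroblast markers the summed mean was 18.9 to 86.1 CPM. Of these, DCN had no count in 38 libraries, while COL1A1, COL1A2, PDGFRB and LUM had counts in every library. Their highest group means were 61, 43.6, 15.5 and 6.3 CPM. In batch 1, 3 libraries at 24 h stood apart, CKI replicate 1, OO replicate 2 and N_3 replicate 2. Over 1106 genes that differed between the batches, their deviation from the other replicates followed the batch difference with slopes of 0.557 to 0.624, and the slopes of the other 33 libraries were from -0.384 to 0.0859. Values at 24 h are therefore also given without these 3 libraries where a call between mixtures changed. The slope does not find every uneven group. N_2 replicate 3 at 24 h, with a slope of -0.123, differed from replicates 1 and 2 by a chi-square per gene of 84.9 and 131. CKI replicate 1 at 24 h differed from its own replicates by 47.1 and 56.1.

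ASB2 was at a very low level in untreated cells and at its highest with whole CKI. At 24 h it was at 1.07, 0.986 and 0.9225 CPM in untreated cells, from 19, 23 and 20 counts, and at 18.9, 15.8 and 17.2 CPM with CKI, from 421, 372 and 317 counts. In batch 1 at 48 h it was at 0.812, 1.02 and 1.19 CPM without treatment and at 22.5, 18.9 and 20.4 CPM with CKI. In batch 2 it was at 2.51, 2.72 and 2.33 CPM without treatment and at 35.0, 36.2 and 31.4 CPM with CKI. The lowest CKI library was thus above the highest untreated library in every set, and in both batches the ranges were far apart. The log2 ratio of CKI to untreated was 4.12 (SE 0.184) at 24 h, 4.35 (SE 0.196) in batch 1 at 48 h and 3.76 (SE 0.128) in batch 2, which are 17.4-, 20.4- and 13.6-fold.

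With every mixture the mean of ASB2 lay between those of untreated cells and of whole CKI. At 24 h the mean was 2.98 ± 0.51 CPM (SD, n = 3) with N_2, 4.04 ± 0.575 CPM with N_3, 8.23 ± 0.673 CPM with OO and 10.2 ± 1.2 CPM with MOO, that is 17.2%, 23.4%, 47.6% and 59.1% of the CKI mean. In batch 1 at 48 h the same mixtures gave 2.98 ± 0.914, 3.58 ± 0.189, 5.95 ± 0.953 and 6.65 ± 1.22 CPM, or 14.5%, 17.4%, 28.9% and 32.3% of the CKI mean. In batch 2 the means were 5.16 ± 0.716 CPM with N_Mac, 4.07 ± 0.882 CPM with N_Nme, 3.54 ± 0.465 CPM with N_Omt and 5.26 ± 0.967 CPM with N_Tri, or 15.1%, 11.9%, 10.4% and 15.4% of the CKI mean. Every library of every mixture lay above all untreated libraries of its set. The smallest log2 ratio to untreated was 0.48 (SE 0.177), with N_Omt, and the largest among the mixtures was 3.36 (SE 0.183), with MOO at 24 h.

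**Figure D1:**
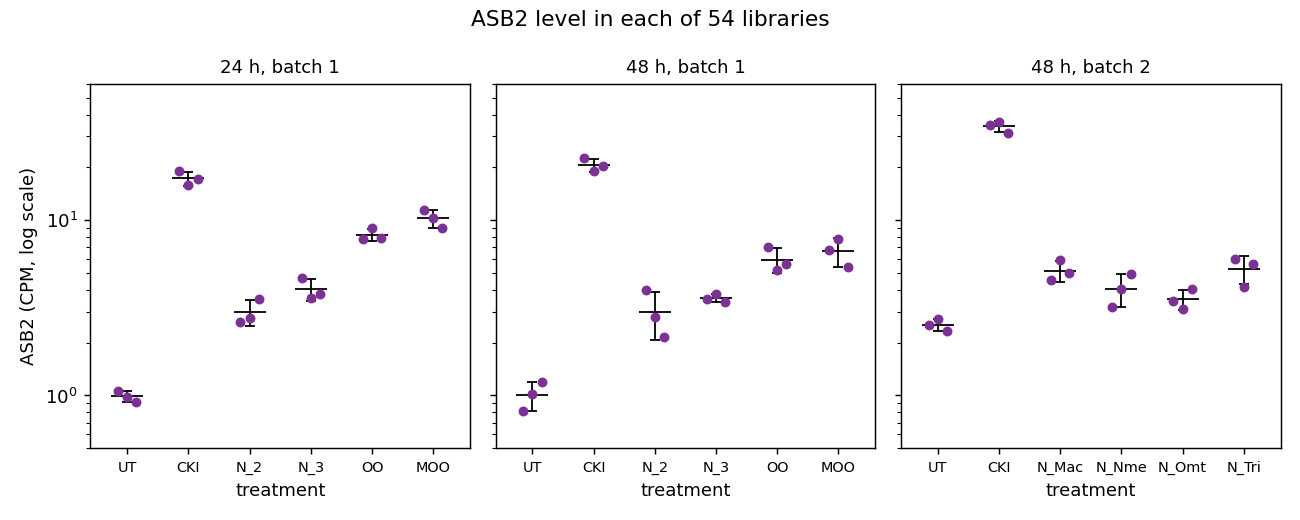
ASB2 level in CPM on a log axis in each of 54 libraries (points), by treatment, with the mean and SD of 3 replicates as black bars. CKI sits between 15.8 and 36.2 CPM, untreated cells between 0.812 and 2.72 CPM, and within each set the means of the mixtures lie in between.

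How often groups stand clear of untreated cells in these data is set by many genes. A share of 52.4% of all genes tested at 24 h had no overlap between CKI and untreated libraries, and the shares were 70.3% with N_2, 56.2% with N_3, 36.8% with OO and 45.0% with MOO. In batch 1 at 48 h they were 63.2% with CKI, 79.9% with N_2, 67.3% with N_3, 68.0% with OO and 61.6% with MOO. In batch 2 they were 69.7% with CKI, 73.6% with N_Mac, 70.7% with N_Nme, 79.3% with N_Omt and 75.1% with N_Tri. Absence of overlap is therefore common here, and the members were chosen by these ratios, so nothing is read from it.

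Compared with each other, the mixtures of batch 1 stood in an order for ASB2. The untreated and CKI samples entered the fit, and so its scaling and spread, but not these differences. Ratios of the mixtures to untreated were part of how the members were chosen, so the p-values below are not independent of that choice. Of 6 pairs at 24 h, 4 were called, at an adjusted p under 0.05 in the quasi-likelihood test of edgeR with the adjustment of Benjamini and Hochberg over all genes. OO was above N_2 by 1.43 on the log2 scale (SE 0.164, adjusted p = 1.48e-06) and above N_3 by 1.02 (SE 0.157, adjusted p = 0.000155), and MOO was above N_2 by 1.75 (SE 0.164, adjusted p = 1.66e-07) and above N_3 by 1.33 (SE 0.157, adjusted p = 1.45e-05). The mixtures made only of the removed alkaloids, alone or with macrozamin, thus had more ASB2 RNA than the mixtures that lacked them. The same comparisons called 61.7% of all genes for OO against N_2, 37.4% for OO against N_3, 60.7% for MOO against N_2 and 36.8% for MOO against N_3, so a difference between these mixtures is a frequent result among all genes.

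N_3 and N_2 were not separated, nor were MOO and OO. N_3 exceeded N_2 by 0.41 on the log2 scale at 24 h (95% interval 0.04 to 0.78, adjusted p = 0.0531 by edgeR), and the difference was 0.48 with an adjusted p of 0.03 without the 3 libraries that stand apart. It was also called when scaled by library sizes alone, at 0.72 (adjusted p = 0.00305 by edgeR), and without N_2 replicate 3, at 0.56 (adjusted p = 0.0165). For this pair 47.6% of all genes were called. MOO and OO, which differ by macrozamin, differed in ASB2 by 0.31 (95% interval -0.02 to 0.64, adjusted p = 0.775 by edgeR). Between MOO and OO at 24 h no gene at all was called, 0% of 15191, by edgeR's quasi-likelihood test or by DESeq2, and 566 genes had an unadjusted p under 0.05 in edgeR.

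After 48 h the means of the mixtures stood in the same order in batch 1. OO was above N_2 by 0.97 (SE 0.182, adjusted p = 5.59e-05 by edgeR) and above N_3 by 0.73 (SE 0.179, adjusted p = 0.00142 by edgeR). MOO was above N_2 by 1.14 (SE 0.179, adjusted p = 6.38e-06 by edgeR) and above N_3 by 0.89 (SE 0.177, adjusted p = 0.000152 by edgeR). Again N_3 and N_2 differed by less than their spread allowed to call, at 0.25 (95% interval -0.18 to 0.68, adjusted p = 0.311), as did MOO and OO at 0.17 (95% interval -0.19 to 0.52, adjusted p = 0.785). Without N_2 replicate 1 the first was called, at 0.51 (adjusted p = 0.0499 by edgeR). Across all genes, 72.1% were called for OO against N_2, 59.5% for OO against N_3, 73.1% for MOO against N_2, 62.2% for MOO against N_3, 51.0% for N_3 against N_2 and 1.98% for MOO against OO.

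Whether these steps changed between 24 and 48 h was tested as an interaction. None of the 6 was called for ASB2 by edgeR, 0 by DESeq2 as well, and 1 had an unadjusted p under 0.05. The largest change was that of MOO against N_2, at -0.62 (SE 0.251, 95% interval -1.13 to -0.10, adjusted p = 0.0589), and it was -0.64 with an adjusted p of 0.0373 without the 3 libraries that stand apart. Scaling by library sizes alone gave 2 calls, MOO against N_2 at -0.88 (adjusted p = 0.00752 by edgeR) and OO against N_2 at -0.75 (adjusted p = 0.0201). MOO against N_2 was also called without N_2 replicate 3 at 24 h (-0.77, adjusted p = 0.0244) or at 48 h (-0.79, adjusted p = 0.0162), without MOO replicate 3 at 24 h (-0.73, adjusted p = 0.0358) and without MOO replicate 2 at 48 h (-0.75, adjusted p = 0.0309). Over all genes the interaction was called for 32.3% with MOO against N_2, 6.38% with MOO against N_3, 37.9% with N_3 against N_2, 32.6% with OO against N_2, 7.14% with OO against N_3 and 0% with MOO against OO, where 835 genes had an unadjusted p under 0.05 in edgeR and DESeq2 also called 0.

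Taking single compounds out of CKI gave a flatter pattern of ASB2 in batch 2, where 2 of 6 pairs were called. N_Omt was below N_Mac by 0.57 on the log2 scale (a difference of -0.57, SE 0.156, adjusted p = 0.00245 by edgeR), and N_Tri was above N_Omt by 0.53 (SE 0.157, adjusted p = 0.0042). The mixture without oxymatrine thus had the lowest ASB2 level, with libraries at 3.45, 3.13 and 4.04 CPM, and it overlapped N_Nme, at 3.19, 4.07 and 4.95 CPM. N_Nme and N_Omt differed by -0.20 (95% interval -0.55 to 0.15, adjusted p = 0.282), and N_Tri and N_Mac by -0.03 (95% interval -0.35 to 0.28, adjusted p = 0.887). Calls over all genes were at 58.1% for N_Omt against N_Mac, 59.6% for N_Tri against N_Omt, 63.5% for N_Omt against N_Nme, 36.8% for N_Tri against N_Mac, 30.7% for N_Nme against N_Mac and 20.5% for N_Tri against N_Nme. Of the remaining pairs, N_Nme against N_Mac was at -0.36 (adjusted p = 0.0629) and N_Tri against N_Nme at 0.33 (adjusted p = 0.117). Without N_Nme replicate 3 both were called, at -0.53 (adjusted p = 0.0194 by edgeR) and 0.50 (adjusted p = 0.0262), so that 4 pairs were called. Without N_Tri replicate 2 the number was also 4, and N_Tri against N_Nme was at 0.50 (adjusted p = 0.0314). N_Nme against N_Mac was called too without N_Mac replicate 1, at -0.44 (adjusted p = 0.048).

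**Figure D2:**
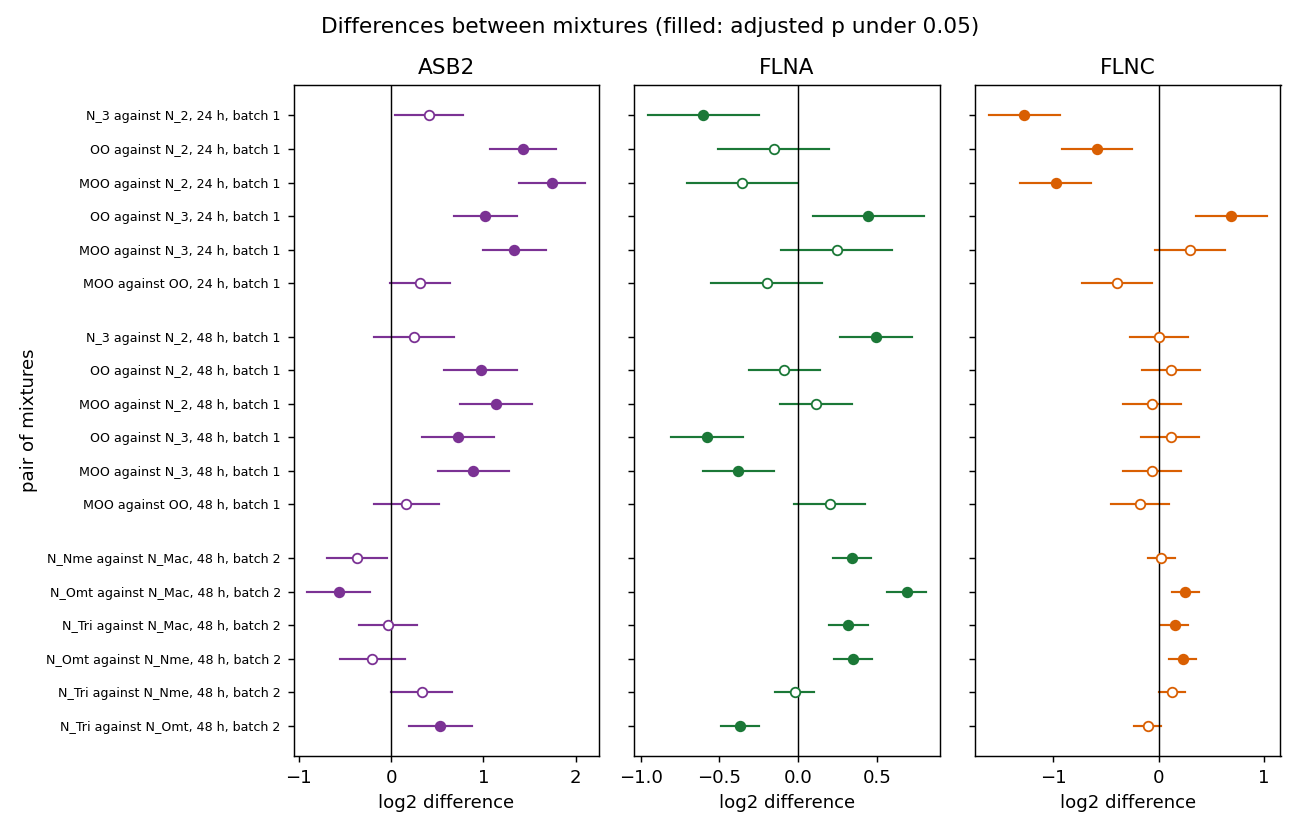
Differences between mixtures on the log2 scale (points) with 95% intervals (lines), 6 pairs in each set, for ASB2, FLNA and FLNC, filled where the adjusted p was under 0.05. ASB2 has 4, 4 and 2 filled points in the sets from top to bottom, FLNA 2, 3 and 5, and FLNC 4, 0 and 3.

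Untreated cells were themselves not alike between batches for ASB2. At 48 h it was higher in batch 2 than in batch 1 by 1.31 on the log2 scale (SE 0.253, adjusted p = 3.23e-05 by edgeR, n = 3 libraries each), from means of 1.01 and 2.52 CPM, while 54.3% of all genes differed in that comparison. Batch 1 and batch 2 hold different mixtures, so levels with the mixtures cannot be told apart from batch across the sets, and ratios are given within a set only. Between 24 and 48 h in batch 1, untreated ASB2 differed by 0.02 (95% interval -0.50 to 0.54, adjusted p = 0.979), with 1.57% of all genes called. FLNA and FLNC were not called in either comparison. They differed between batches by 0.11 (adjusted p = 0.296) and 0.03 (adjusted p = 0.842), and between times by 0.07 (adjusted p = 0.84) and 0.18 (adjusted p = 0.568).

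FLNA, the more abundant of the filamin members, overlapped its untreated level with CKI at 24 h and was lower at 48 h. At 24 h untreated libraries were at 2829, 2767 and 3046 CPM and CKI libraries at 3023, 2805 and 2609 CPM. These ranges overlapped, and the log2 ratio was -0.03 (SE 0.161). In batch 1 at 48 h FLNA was at 3124, 2946 and 3037 CPM without treatment and at 2337, 2347 and 2364 CPM with CKI, a ratio of -0.37 (SE 0.104). In batch 2 it was at 3417, 3142 and 3349 CPM without treatment and at 2656, 2479 and 2528 CPM with CKI, again a ratio of -0.37 (SE 0.0559). At 48 h every CKI library was below every untreated library in both batches.

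Mixtures lacking a single compound were in batch 2 only and cannot be ranked against those of batch 1 apart from batch. Within batch 2, FLNA was lower with each of them than in untreated cells and with whole CKI. With N_Mac its libraries were at 1366, 1397 and 1235 CPM, a log2 ratio of -1.30 (SE 0.0568). With N_Tri they were at 1649, 1716 and 1775 CPM, a ratio of -0.98 (SE 0.0564), and with N_Nme at 1639, 1701 and 1840 CPM, a ratio of -0.96 (SE 0.0563). With N_Omt FLNA stayed higher, at 2274, 2093 and 2146 CPM, a ratio of -0.61 (SE 0.056). These ratios were lower than the -0.37 of whole CKI in the same batch, whereas the ratios of ASB2 with the same mixtures lay nearer to 0 than that of whole CKI.

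These differences among the single-compound mixtures were called in 5 of 6 pairs for FLNA. Among all genes 58.1% were called for N_Omt against N_Mac, 63.5% for N_Omt against N_Nme and 59.6% for N_Tri against N_Omt. The shares were 36.8% for N_Tri against N_Mac, 30.7% for N_Nme against N_Mac and 20.5% for N_Tri against N_Nme, the pair not called. N_Omt was above N_Mac by 0.69 on the log2 scale (SE 0.0562, adjusted p = 7.28e-12 by edgeR), above N_Nme by 0.35 (SE 0.0559, adjusted p = 2.86e-06) and above N_Tri, the difference of N_Tri from it being -0.37 (SE 0.056, adjusted p = 1.23e-06). N_Nme and N_Tri were above N_Mac by 0.34 (adjusted p = 2.83e-05) and 0.32 (adjusted p = 5.39e-05). N_Tri and N_Nme, neighbours in level, differed by -0.02 (95% interval -0.15 to 0.10, adjusted p = 0.818 by edgeR). N_Omt had the highest FLNA and the lowest ASB2 of these mixtures, and N_Mac, with the lowest FLNA, was at 5.16 CPM for ASB2 beside 5.26 CPM with N_Tri.

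In batch 1 the order of the mixtures for FLNA turned between the time points, with N_3 lowest at 24 h and highest at 48 h. At 24 h N_3 libraries were at 2047, 2832 and 2121 CPM and N_2 libraries at 3782, 3843 and 2855 CPM, a difference of -0.60 (SE 0.161, adjusted p = 0.00566 by edgeR). OO, at 2583, 3845 and 3123 CPM, was above N_3 by 0.45 (SE 0.161, adjusted p = 0.0388), and MOO was at 2719, 2761 and 2837 CPM. Among all genes 47.6% were called for N_3 against N_2 and 37.4% for OO against N_3. For MOO against N_2 and MOO against N_3 the shares were 60.7% and 36.8%. Without the 3 libraries that stand apart 4 pairs were called in place of 2, since MOO was then below N_2 by a difference of -0.35 (adjusted p = 0.0173 by edgeR) and above N_3 by 0.41 (adjusted p = 0.022). MOO was also below N_2 without N_2 replicate 3, by a difference of -0.49 (adjusted p = 0.0146), and by DESeq2 at -0.38 (adjusted p = 0.0316). The difference of OO from N_3 was 0.28 and no longer called without OO replicate 2 alone (adjusted p = 0.205 by edgeR). The number of pairs called was 1 without N_3 replicate 1, without N_3 replicate 3, without OO replicate 3 and without MOO replicate 2. With library sizes alone as the scaling the difference of N_3 from N_2 was -0.27 (adjusted p = 0.186), and in a fit of only the groups compared it was -0.57 (adjusted p = 0.0572), with OO against N_3 at 0.43 (adjusted p = 0.171).

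At 48 h N_3 libraries were at 3254, 4413 and 2820 CPM, against 2478, 2400 and 2555 CPM with N_2, 2350, 2383 and 2313 CPM with OO and 2622, 2833 and 2643 CPM with MOO. N_3 was above N_2 by 0.49 (SE 0.104, adjusted p = 0.000457 by edgeR), OO was at -0.58 from N_3 (SE 0.104, adjusted p = 5.67e-05) and MOO at -0.38 (SE 0.104, adjusted p = 0.0032). Among all genes 51.0% were called for N_3 against N_2, 59.5% for OO against N_3 and 62.2% for MOO against N_3. N_3 replicate 2 was the highest of all 54 libraries for FLNA. Without it the 3 differences were 0.29 (adjusted p = 0.000188), -0.37 (adjusted p = 5.22e-06) and -0.17 (adjusted p = 0.0158) by edgeR, and the ratio of N_3 to untreated went from 0.20 to -0.01. In a fit of only the groups compared MOO against N_3 was at -0.39 and not called (adjusted p = 0.0614 by edgeR).

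The turn itself was tested as an interaction with time. Among all genes this was called for 37.9% with N_3 against N_2, 7.14% with OO against N_3 and 6.38% with MOO against N_3. The shares were 32.3% with MOO against N_2, 32.6% with OO against N_2 and 0% with MOO against OO. The difference of N_3 from N_2 in FLNA rose by 1.08 on the log2 scale from 24 to 48 h (SE 0.194, adjusted p = 7.27e-05 by edgeR), and by 0.88 without N_3 replicate 2 at 48 h (adjusted p = 0.000403). The difference of OO from N_3 changed by -1.02 (SE 0.194, adjusted p = 0.00139). For MOO against N_3 the change was -0.62 (SE 0.194, adjusted p = 0.0495), close to the threshold. It was -0.42 with an adjusted p of 0.192 without N_3 replicate 2 at 48 h, and -0.81 with an adjusted p of 0.00206 without the 3 libraries that stand apart. This call was also lost without any single library of MOO at either time and, at -0.46 (adjusted p = 0.146), with library sizes alone. MOO against N_2 changed by 0.46 and was not called (SE 0.194, adjusted p = 0.0693 by edgeR). It was called at 0.43 without the 3 libraries that stand apart (adjusted p = 0.0327), so that 4 interactions were called there in place of 3, at 0.59 without N_2 replicate 3 at 24 h (adjusted p = 0.0158) and at 0.47 in a fit of only the groups compared (adjusted p = 0.0319). In that last fit the changes of OO and MOO against N_3 were -1.04 (adjusted p = 0.118) and -0.63 (adjusted p = 0.164) and were not called.

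Over the 15 treated groups FLNA was below its own untreated group in 12 and above it in 3, with ratios from -1.30 to 0.30. The 3 were N_2 at 24 h at 0.30, OO at 24 h at 0.15 and N_3 at 48 h at 0.20, and each of them had libraries within or below the untreated range. With library sizes alone as the scaling, N_2 at 24 h was at -0.02 and CKI at 24 h at 0.02, so the sign at 24 h turned with the scaling. Without OO replicate 2 the ratio of OO at 24 h was -0.02.

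FLNC, the filamin of skeletal and heart muscle, was higher with CKI than without in all sets. At 24 h untreated libraries were at 335, 327.7 and 385 CPM and CKI libraries at 826.7, 700.7 and 620.8 CPM. The groups were apart, with a log2 ratio of 1.04 (SE 0.154). In batch 1 at 48 h FLNC was at 403.7, 389.3 and 396.1 CPM without treatment and at 599.5, 637.3 and 648.3 CPM with CKI, a ratio of 0.67 (SE 0.127). In batch 2 it was at 427, 375.7 and 419.2 CPM without treatment and at 623.9, 564.5 and 603.2 CPM with CKI, a ratio of 0.56 (SE 0.0583). The antisense gene FLNC-AS1 had at most 22 counts in any library, and whether the counting used strand is not given in the sources used here.

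At 24 h the highest mean of FLNC was reached with N_2, which lacks oxymatrine and oxysophocarpine, and not with whole CKI. With N_2 at 24 h its libraries were at 1099, 1099 and 801.1 CPM, a log2 ratio to untreated of 1.54 (SE 0.156), and with N_3, which lacks macrozamin as well, at 381.9, 472.7 and 402.5 CPM, a ratio of 0.27 (SE 0.153). N_3 thus came near the untreated range and overlapped it, and N_2 did not. OO was at 562.5, 748.2 and 725.9 CPM and MOO at 476.3, 530 and 542.7 CPM. Over all 15 treated groups the ratio of FLNC to untreated was above 0, from 0.04 with N_Mac to 1.54, with a median of 0.67, and that of N_Mac was -0.02 without untreated replicate 2 of its batch.

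At 24 h 4 of the 6 pairs of mixtures were called for FLNC. Among all genes 47.6% were called for N_3 against N_2, 60.7% for MOO against N_2 and 61.7% for OO against N_2. For OO against N_3 and MOO against N_3 the shares were 37.4% and 36.8%. N_3 was at -1.27 from N_2 (SE 0.155, adjusted p = 6.38e-06 by edgeR), MOO at -0.98 (SE 0.154, adjusted p = 3.95e-05) and OO at -0.58 (SE 0.153, adjusted p = 0.00341), and OO was above N_3 by 0.69 (SE 0.153, adjusted p = 0.00234). Scaled by library sizes alone, OO was at -0.23 from N_2 and not called (adjusted p = 0.236 by edgeR), which left 3 pairs, so that N_2 was above N_3 and MOO under either scaling and above OO under TMM. MOO and N_3 differed by 0.30 (95% interval -0.04 to 0.63, adjusted p = 0.14), and by 0.39 with an adjusted p of 0.0437 without the 3 libraries that stand apart. MOO was at -0.40 from OO (95% interval -0.73 to -0.06, adjusted p = 0.775, in the comparison in which no gene was called).

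By 48 h in batch 1 the mixtures had drawn together for FLNC. No pair was called by edgeR, 0 had an unadjusted p under 0.05, and DESeq2 called 0. Among all genes the shares called were from 1.98% for MOO against OO to 73.1% for MOO against N_2. The group means were 707.9 ± 41.7 CPM (SD, n = 3) with N_2, 710.9 ± 219.7 CPM with N_3, 772.6 ± 30.9 CPM with OO and 683.4 ± 44.8 CPM with MOO. The widest difference was that of MOO from OO, at -0.18 (95% interval -0.45 to 0.10, adjusted p = 0.649). N_3 replicate 2 was at 960.8 CPM beside 623.7 and 548.1 CPM in the other replicates, and without it 3 pairs were called: N_3 against N_2 at -0.28 (adjusted p = 0.00103 by edgeR), OO against N_3 at 0.40 (adjusted p = 9.85e-06) and MOO against N_3 at 0.22 (adjusted p = 0.00573). Scaling by library sizes alone gave 1 call, OO against N_3 at 0.28 (adjusted p = 0.0321 by edgeR).

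The narrowing from 24 to 48 h was itself called in 3 of the 6 pairs, each against N_2. Among all genes the interaction was called for 37.9% with N_3 against N_2, 32.3% with MOO against N_2 and 32.6% with OO against N_2. With OO against N_3, MOO against N_3 and MOO against OO the shares were 7.14%, 6.38% and 0%. Calls against N_2 are thus the more frequent ones among all genes too. The difference from N_2 rose by 1.26 on the log2 scale for N_3 (SE 0.208, adjusted p = 2.53e-05 by edgeR), by 0.90 for MOO (SE 0.208, adjusted p = 0.00126) and by 0.69 for OO (SE 0.208, adjusted p = 0.0107). Scaled by library sizes alone, OO against N_2 was at 0.38 and not called (adjusted p = 0.156 by edgeR), which left 2 interactions. Without N_3 replicate 2 at 48 h the first was 0.99 (adjusted p = 9.38e-05). The others, OO against N_3 at -0.57 (adjusted p = 0.0909), MOO against N_3 at -0.36 (adjusted p = 0.331) and MOO against OO at 0.21 (adjusted p = 0.794), were not called. OO against N_3 was called by DESeq2, at -0.60 (adjusted p = 0.0488), and by edgeR without N_3 replicate 2 at 24 h (-0.67, adjusted p = 0.0347), without OO replicate 1 at 24 h (-0.72, adjusted p = 0.0271) and without N_3 replicate 3 at 48 h (-0.76, adjusted p = 0.0185).

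In batch 2, mixtures lacking a single compound had FLNC close to untreated cells. Its libraries were at 419.8, 437.6 and 388.1 CPM with N_Mac, at 402.3, 422.5 and 472.9 CPM with N_Nme, at 523, 477.9 and 503.1 CPM with N_Omt and at 466.9, 473.1 and 488.6 CPM with N_Tri. N_Mac and N_Nme overlapped the untreated libraries, and N_Omt and N_Tri lay above them. Of the 6 pairs 3 were called. Among all genes 58.1% were called for N_Omt against N_Mac, 63.5% for N_Omt against N_Nme and 36.8% for N_Tri against N_Mac. For N_Tri against N_Omt and N_Tri against N_Nme the shares were 59.6% and 20.5%. N_Omt was above N_Mac by 0.26 (SE 0.0583, adjusted p = 0.000382 by edgeR) and above N_Nme by 0.23 (SE 0.0582, adjusted p = 0.00102), and N_Tri was above N_Mac by 0.15 (SE 0.0583, adjusted p = 0.0382), a call that was lost without any single library of N_Tri and without N_Mac replicate 1 or replicate 3. N_Tri and N_Omt differed by -0.10 (95% interval -0.23 to 0.03, adjusted p = 0.132). N_Tri against N_Nme was called without N_Nme replicate 3, at 0.19 (adjusted p = 0.0204 by edgeR).

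**Figure D3:**
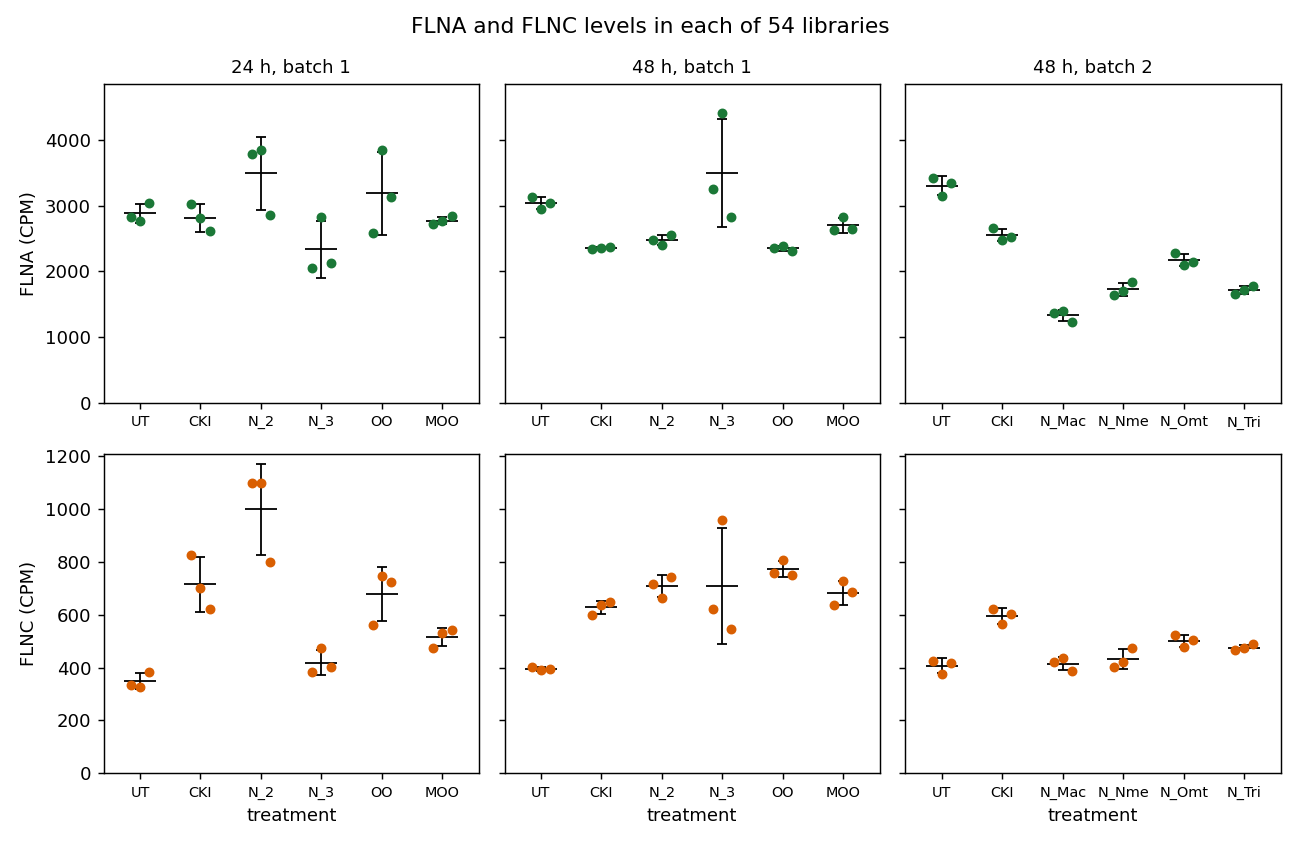
FLNA and FLNC levels in CPM in each of 54 libraries (points) by treatment, with the mean and SD of 3 replicates as black bars and axes that start at 0. N_3 replicate 2 at 48 h is the topmost point for FLNA (4413 CPM), and N_2 at 24 h holds the topmost points for FLNC (1099 CPM).

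N_Omt thus had the highest mean of FLNA and of FLNC among the mixtures of batch 2 and the lowest of ASB2, although its FLNC was not separated from N_Tri nor its ASB2 from N_Nme.

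On a scale per length of the longest GENCODE transcript, untreated cells at 24 h held 338 CPM per kb of FLNA, 38.0 of FLNC and 0.349 of ASB2. With CKI at 24 h the levels were 330, 77.9 and 6.09 CPM per kb. ASB2 therefore remained far under both filamin members even at its highest, 12.0 CPM per kb with CKI in batch 2. FLNC was highest with N_2 at 24 h, at 109 CPM per kb beside 410.2 for FLNA.

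FLNC held a larger share of the summed FLNA and FLNC counts in all treated groups than in untreated cells. It made up 10.8% ± 0.365 (SD, n = 3) of them in untreated cells at 24 h, 11.6% ± 0.115 in batch 1 at 48 h and 11.0% ± 0.252 in batch 2. With CKI the shares were 20.2% ± 1.14, 21.1% ± 0.595 and 18.9% ± 0.363. The lowest share in a treated group was 15.3% ± 0.892, with N_3 at 24 h, and the highest 24.7% ± 0.501, with OO at 48 h. The lowest single treated library, at 14.3%, was above the highest untreated library, at 11.7%. The share restates the levels by whose ratios to untreated the members were chosen, and other pairs of genes were not compared, so nothing is read from this separation. N_3 at 48 h, which includes the library with the highest FLNA level, had a summed level of 4207 ± 1040 CPM and an FLNC share of 16.7% ± 0.987. In N_Mac the summed level was 1748 ± 111 CPM against 3710 ± 171 CPM in untreated cells, with FLNC at 23.8% ± 0.219 of the counts.

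**Figure D4:**
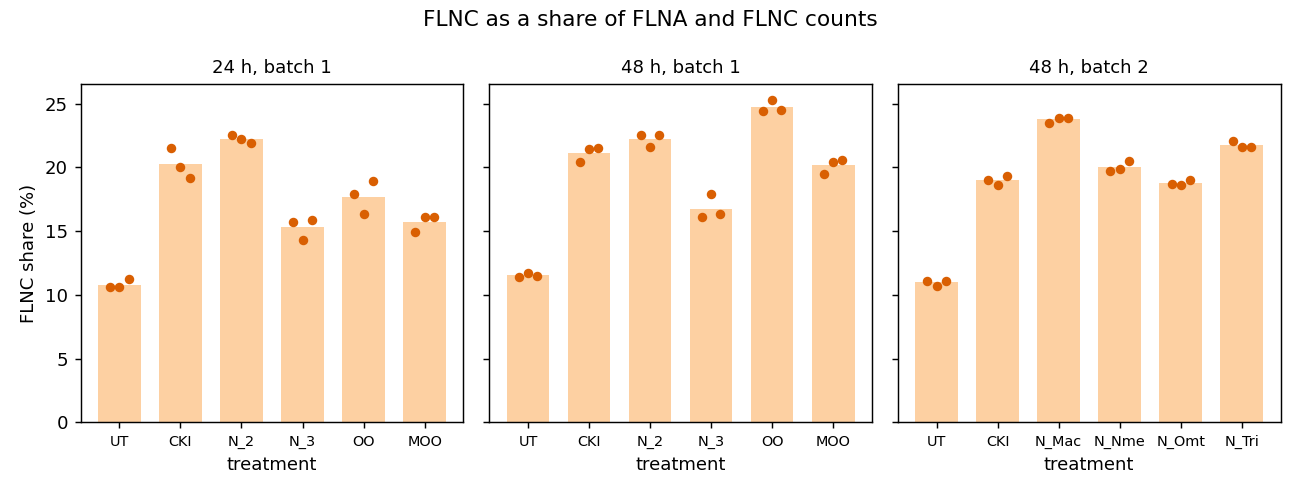
FLNC as a percentage of the summed counts of FLNA and FLNC in each library (points) with the mean of 3 replicates (bars). Untreated libraries lie at or below 11.7% and treated libraries at or above 14.3%.

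Seen over the 15 treated groups, the ratios of FLNA and FLNC to untreated had a Pearson correlation of 0.846 (Spearman 0.814), those of ASB2 and FLNA 0.493 (Spearman 0.45) and those of ASB2 and FLNC 0.422 (Spearman 0.464). These describe 15 groups that share 3 untreated groups. The sets are pooled in them, and within batch 1 at 48 h OO had the lowest mean of FLNA and the highest of FLNC among the mixtures.

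**Figure D5:**
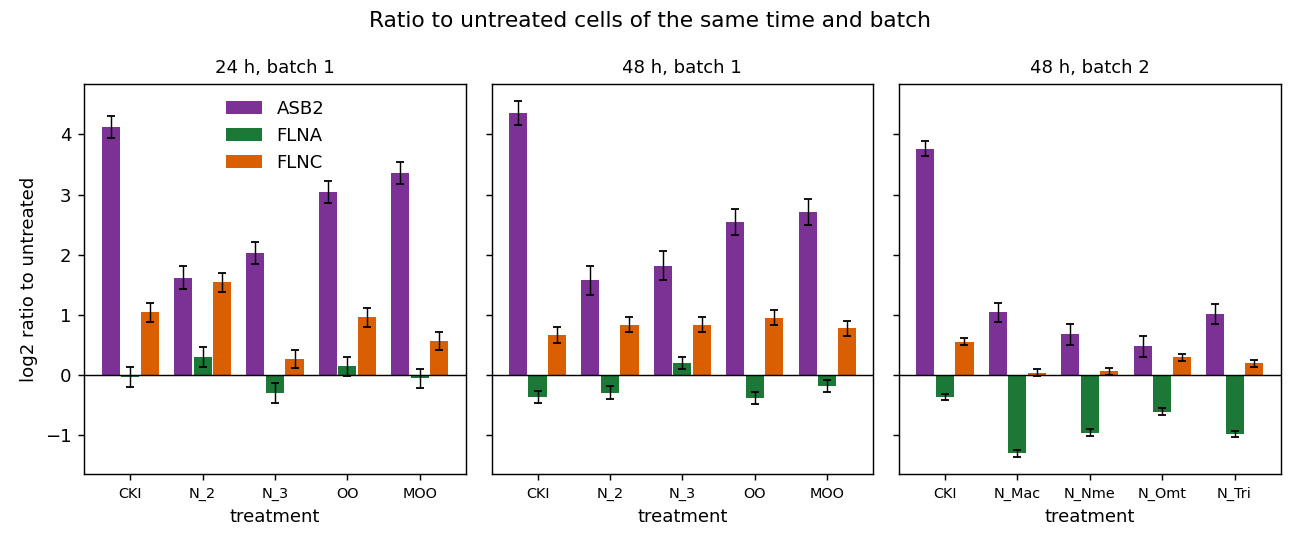
Log2 ratio to untreated cells of the same time and batch for ASB2, FLNA and FLNC in the 15 treated groups, with SE as error bars. ASB2 is above 0 in all groups with CKI highest in each set, FLNA is mostly below 0, down to -1.30 with N_Mac, and FLNC is highest with N_2 at 24 h at 1.54.

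The genes whose ratios over the 15 groups were most like those of ASB2, among 9781 genes, were SCARB1, a lipoprotein receptor (Pearson r 0.956), MAN2B1, a lysosomal mannosidase (0.949), PNPLA2, a triglyceride lipase (0.947), SHISA5 (0.946) and the divergent transcript BAIAP2-DT (0.94). They followed its order and not its height, since the highest log2 ratio of SCARB1 was 0.28 and that of SHISA5 was -0.02. For FLNA they were SH3RF3 (0.956), the kinesin KIFC3 (0.931), MLLT1 (0.922), the RNA helicase UPF1 of nonsense-mediated decay (0.918) and the amino acid transporter SLC7A5 (0.905). For FLNC they were TADA2B (0.943), TGFBRAP1 (0.931), the transcription factor NFIX (0.918), BAG3, a co-chaperone that clears damaged filamin (0.903), and RAI1 (0.9). The measure compares 15 points with shared untreated groups and carries no test.

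The other parts of the ligase were tested for CKI against untreated cells, comparisons in which many genes were called. At 24 h 30.0% of all genes were called, 15.3% higher and 14.8% lower. The share was 54.0% in batch 1 at 48 h, 27.0% in each direction, and 66.4% in batch 2, 32.3% higher and 34.2% lower. Of 9 genes that build or drive the complex, a single gene rose at 24 h, whereas at 48 h 1 rose and 2 fell in each batch, with median log2 fold changes of 0.01, -0.05 and -0.05 beside 0.02, 0.01 and -0.01 over all genes. UBE2F, the enzyme that activates cullin-5 by NEDD8, rose by 0.50 at 24 h (adjusted p = 0.0373 by edgeR) and by 0.44 in batch 1 at 48 h (adjusted p = 0.00229), and was at 0.18 in batch 2 (adjusted p = 0.0635). CUL5, the scaffold, fell by 0.31 in batch 1 at 48 h and was at -0.03 and -0.08 in the other sets. COPS5 was at -0.06 at 24 h and was called lower at 48 h in both batches, at -0.23 and -0.185. RNF7 was at 0.17, 0.11 and -0.21 and was called in batch 2 only. ELOB, elongin B, was at 0.01, 0.18 and 0.26 and passed the test in batch 2 only.

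Of the 17 other genes of the ASB family, 8 passed the filter on low counts at 24 h, and 9 and 10 did at 48 h in batches 1 and 2. Of these, 4 were called in each set, 2, 2 and 3 of them higher, with medians of 0.16, 0.19 and 0.22. ASB1 fell in all sets (-0.53, -0.60 and -0.70), and ASB6 (0.45, 0.31 and 0.38) and ASB8 (0.51, 0.28 and 0.57) rose.

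Transcripts of 5 other proteins described as ASB2 targets fell or did not pass the test, with 1 lower at 24 h, 2 in batch 1 at 48 h and 1 in batch 2. The kinase gene JAK3 was at -1.05 at 24 h (called), -0.07 and 0.31, and JAK2 at -0.37, -0.56 (called) and -0.29. TCF3, the E2A transcription factor, was at -0.31 at 24 h and fell at 48 h (-0.27 and -0.29). The medians of the list were -0.37, -0.16 and -0.29.

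Genes of filamin partners, proteins that bind, cut or phosphorylate filamins, moved both ways. Of 22 genes, 18 could be tested at 24 h and 19 at 48 h. The 24 h samples had 3 genes higher and 4 lower, those of batch 1 at 48 h had 6 and 8, and those of batch 2 had 6 and 9, with medians of 0.03, -0.16 and -0.17. FILIP1L, a relative of the filamin-binding FILIP1, went from 22.2 ± 1.01 CPM (SD, n = 3) to 5.83 ± 1.39 CPM at 24 h, a fall by 1.93 on the log2 scale (adjusted p = 4.72e-07 by edgeR), and was at -1.93 and -2.23 at 48 h. CAV1, the main protein of caveolae, fell in all sets (-1.31, -1.48 and -1.73), as did VIM, the intermediate filament protein vimentin (-1.44, -1.14 and -1.50). SH2B3, a signalling adaptor, rose by 1.00, 0.67 and 0.90.

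In chaperone-assisted selective autophagy, the path by which damaged filamin is taken up for degradation, 2 of 6 genes rose in all 3 sets. SQSTM1, the autophagy receptor p62, went from 604.7 ± 14.7 CPM (SD, n = 3) to 1573 ± 77.5 CPM at 24 h, a rise of 1.38 on the log2 scale (adjusted p = 1.78e-05 by edgeR), and rose by 0.98 and 0.84 at 48 h. HSPB8, a small heat shock protein, rose by 1.01, 0.79 and 0.89. The chaperone gene HSPA8 was at -0.17 at 24 h and fell at 48 h (-0.63 and -0.75), and BAG3 was at 0.16, -0.25 (called) and -0.09. In batch 2 SYNPO2, whose product links this machinery to filamin, rose by 1.31. In all 2, 4 and 4 genes of the 6 were called, 2, 2 and 3 of them higher.

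Genes of other proteins that crosslink or tether actin came next. Among the 13 tested, the numbers higher and lower were 1 and 2 in the 24 h samples, 2 and 8 in batch 1 after 48 h, and 3 and 7 in batch 2, with medians of -0.07, -0.39 and -0.20. The alpha-actinin genes ACTN4 and ACTN1 were lower in all sets, ACTN4 at -0.45 (adjusted p = 0.0177 by edgeR), -0.71 and -0.65, and ACTN1 at -0.35, -0.53 and -0.70. PLS1, or plastin 1, rose by 0.63, 0.58 and 0.75, and FSCN1, or fascin, was at 0.30 at 24 h and rose by 0.31 and 0.65 at 48 h.

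ASB2 is known as a target of retinoic acid in leukemia cells and of Notch, and other genes of both responses were read beside it. Of 7, 7 and 6 retinoic acid response genes tested, 0, 1 and 3 were higher and 3, 4 and 3 lower by edgeR, with medians of -0.90, -0.40 and -0.16. RARRES3, TGM2 and CYP26B1, each induced by retinoic acid in other cells, were lower in all sets, with RARRES3 at -1.85, -1.56 and -1.29, TGM2 at -0.91, -1.11 and -0.95, and CYP26B1 at -0.90, -0.40 and -0.82, whereas the receptor gene RARB was at 1.28 at 24 h without passing the test and rose by 1.78 and 1.38. Of 6, 7 and 6 Notch response genes tested, 1, 2 and 2 were higher and 1, 0 and 2 lower, with medians of -0.29, 0.14 and 0.11. NOTCH3 went from 0.853 ± 0.3 CPM (SD, n = 3) to 3.57 ± 0.915 CPM at 24 h, a rise of 2.05 (adjusted p = 0.00775 by edgeR), and rose by 2.02 and 2.64 at 48 h. HES1 was at 0.17 at 24 h and rose by 0.85 and 0.57, and NRARP was at -0.89 (called), -0.30 and -0.57 (called).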

How the data were processed

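RNA of 54 MDA-MB-231 libraries was read as deposited raw counts. Per the labels, the submitters' processing notes name FastQC 0.11.4, Trim Galore 0.3.7, STAR 2.5.3a, Subread 1.5.2 (featureCounts) and edgeR 3.22.3 with hg19; libraries were strand-specific from oligo(dT)-selected RNA. The authors deposited these counts per gene without normalization. Total counts had a median of 22568666.5.

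Each set of time and batch (18 libraries) was fitted with edgeR 4.0.16 in R 4.3.3 (filterByExpr, TMM, glmQLFit, glmQLFTest). P-values were adjusted by the Benjamini-Hochberg method over all genes, and a call is an adjusted p under 0.05. Interactions with time and untreated comparisons used fits of 36 libraries. SE is the log2 fold change over the root of F, and 95% intervals used 12 or 24 residual degrees of freedom. Mean CPM values used TMM over all libraries. P-values measure the spread between replicates, which the labels call biological. Alternatives were other scalings, no filter, DESeq2 1.42.0, other sets of libraries in the fit, a replicate block, a fold threshold and leaving out libraries.

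The members and all lists were chosen with earlier results of these data known. Named genes were the members, up to 4 genes of each list with the largest change in batch 1 at 48 h, called alike in all 3 CKI comparisons, and the 5 genes with the highest Pearson correlation to each member over the treated groups (genes tested in every set, mean level 10 CPM or more). UBE2F, CUL5, COPS5, RNF7, ELOB, JAK2, JAK3, TCF3, HSPA8, BAG3, SYNPO2, FSCN1, RARB, HES1 and NRARP were added from the lists after their values were seen. Replicates of no group differed by less than counting noise (chi-square per gene at least 1.97). The highest value was 131, between N_2 replicates 2 and 3 at 24 h. The scripts were tested on simulated counts. A further gene of the planned lists is not reported here.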

Additional observations from a re-analysis of the deposited data

Results flagged for a closer look

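For the filamins, 6 differences between mixtures differed between the 24 h and 48 h samples of batch 1 by edgeR's test of the interaction. In FLNA these were N_3 against N_2 (1.08 on the log2 scale, adjusted p = 7.27e-05), OO against N_3 (-1.02, adjusted p = 0.00139) and MOO against N_3 (-0.62, adjusted p = 0.0495). In FLNC they were N_3 against N_2 (1.26, adjusted p = 2.53e-05), MOO against N_2 (0.90, adjusted p = 0.00126) and OO against N_2 (0.69, adjusted p = 0.0107). The 3 of FLNA share N_3 and the 3 of FLNC share N_2, so they are not independent of each other. Among all genes the interaction was called for 37.9% with N_3 against N_2, 32.3% with MOO against N_2 and 32.6% with OO against N_2. With OO against N_3 and MOO against N_3 the shares were 7.14% and 6.38%. Without N_3 replicate 2 at 48 h, MOO against N_3 in FLNA was no longer called (-0.42, adjusted p = 0.192), and N_3 against N_2 was still called in FLNA (0.88, adjusted p = 0.000403) and in FLNC (0.99, adjusted p = 9.38e-05). With library sizes alone as the scaling, OO against N_2 in FLNC (0.38, adjusted p = 0.156) and MOO against N_3 in FLNA (-0.46, adjusted p = 0.146) were not called, and fitted on only the groups compared, OO against N_3 in FLNA was not called (-1.04, adjusted p = 0.118). No test for single libraries that stand apart in a member was run within groups of 3 replicates. Each library was instead left out in turn.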

How the results depend on the processing

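Most checks, each of a single result under a single alternative, kept the direction and the side of the threshold. Many of the tested differences nevertheless changed call or direction under at least 1 alternative. A threshold of 1 on the size of the log2 fold change left fewer calls: for ASB2 1 pair at 48 h in batch 1 and 0 in batch 2, for FLNA 0 pairs in each set, for FLNC 1 pair at 24 h, 0 in batch 2 and 1 interaction, and for the gene lists 10, 12 and 9 genes in place of 23, 44 and 47. With library sizes alone, which moved the median of all genes by up to 0.348, 2 interactions of ASB2, 1 pair of FLNA at 24 h and 1 pair of FLNC at 48 h in batch 1 were called, the ratio of CKI to untreated at 48 h was -0.284 and -0.275 for FLNA and 0.751 in batch 1 for FLNC, and the direction turned for FLNA in OO against N_2 at 24 h (0.196) and its interaction (-0.249), and for FLNC at 48 h in N_3 against N_2 (-0.13) and MOO against N_3 (0.083). Fitting only the groups compared gave 0 pairs of FLNA at 24 h, 2 of FLNC at 48 h in batch 1, and -0.003 for FLNC between untreated batches. Fitting all 54 libraries gave 1 interaction of ASB2, 0 pairs of FLNC in batch 2 and 0.021 for ASB2 in N_Tri against N_Mac, where DESeq2 gave 0.001. RLE size factors and DESeq2 gave 0 for FLNA in N_Tri against N_Nme and -0.002 for FLNC in N_3 against N_2 at 48 h. Without the 3 libraries that stand apart, 1 interaction of ASB2, 4 pairs of FLNA at 24 h and 4 of its interactions were called.

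Leaving out single libraries gave 2 to 4 pairs of ASB2 in batch 2, 0 to 1 of its interactions, 1 to 3 pairs of FLNA at 24 h and 0 to 3 pairs of FLNC at 48 h in batch 1. It moved differences across 0 for ASB2 between untreated times (-0.106 to 0.162), in N_Tri against N_Mac (-0.131 to 0.134) and in the interaction of N_3 against N_2 (-0.346 to 0.09). The same held for FLNA in N_Tri against N_Nme (-0.051 to 0.016) and in the interaction of OO against N_2 (-0.101 to 0.225), and for FLNC between untreated batches (-0.039 to 0.08), in N_Nme against N_Mac (-0.033 to 0.069) and, at 48 h in batch 1, in N_3 against N_2 (-0.276 to 0.165), OO against N_3 (-0.044 to 0.398) and MOO against N_3 (-0.221 to 0.22). The cause of these shifts was not tested. Of 135 same-numbered pairs of libraries 15 had deviations correlated over 0.1, nearly all of them at 24 h. There, 6, 3 and 5 of 15 pairs were over 0.1 for replicates 1, 2 and 3, with a highest correlation of 0.544. Whether replicate numbers pair the libraries at 24 h is not settled by such a count. With the replicate number as a block, FLNC in N_3 against N_2 at 48 h was at -0.017, and no other direction turned and no call changed. ASB2 in untreated cells rests on few counts per library, which limits its ratios to untreated.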
